A study of Mus musculus with 9 samples.

Results

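The long noncoding RNAs described here lie around Cd82 on mouse chromosome 2, and both of the loci that name the set were low in control β-TC6 cells and several times or more higher after either fatty acid. The set holds Gm13807 (locus XLOC_083625), the unannotated locus XLOC_083627, and every other deposited transcript that overlaps a 120 kb window around Cd82, which added Gm10804 (XLOC_083626). It comprises 7 transcripts at 3 loci, of 15589 transcripts at 9635 loci in the deposited table, and 5 of the 7 transcripts had a count above 0. XLOC_083625 and XLOC_083627 were chosen by their counts, which differed between the acid and control libraries, so their values in all 3 groups are given as a description with no test. Gm10804 entered through its position in the window and was tested. That window was placed where the chosen pair lies, which the p-values of Gm10804 do not take into account.

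β-TC6 is an insulin-secreting line from an insulinoma of transgenic mice, and so stands for a tumour-derived β cell and not for an islet. The groups were stearic acid (3 libraries), palmitic acid (3 libraries) and untreated control (3 libraries). Acid-treated cells were kept for 24 h with 400 µmol/L of 1 acid and 1.3% BSA (bovine serum albumin), and the labels do not say whether the control cells received BSA. Total RNA was sequenced after removal of ribosomal RNA, and the labels do not say whether the libraries of a group came from separate cultures, so the p-values measure the spread between these libraries only. Stearic acid is a saturated fatty acid with a chain longer than that of palmitic acid by a pair of carbon atoms.

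Cd82 encodes a tetraspanin, a protein that crosses the membrane several times and gathers integrins, receptors and other tetraspanins into membrane patches. It is best known as KAI1, a suppressor of metastasis. A long noncoding RNA (lncRNA) is a transcript without a long open reading frame; some act on the gene beside them, and many have no known role. No function is known with certainty for the 3 loci here. Saturated fatty acids are widely used on β-cell lines to model lipid overload.

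Library totals over the lncRNA table were 1537431 to 2418397 counts with stearic acid, 2484333 to 2755266 with palmitic acid and 1839123 to 2870275 in control cells. Levels are given in CPM, the read counts of a library scaled to a common total of lncRNA counts, so a change is relative to the other lncRNAs. Stearic acid replicate 2 had the lowest total and stood apart on the second principal component of all tested loci, at -26.9 against -4.47 to 11.5 for the other 8 libraries. Loci at 11 of 11 β-cell markers, 14 loci in all, together had 10050 to 10560 CPM with stearic acid, 11400 to 11950 CPM with palmitic acid and 16260 to 16620 CPM in control cells. The β-cell list includes the lncRNA names Igf2os, Pcsk2os1 and Pcsk2os2, and the values of its single loci are not given. Loci at 2 of 3 alpha-cell marker genes had 84.37 to 96.52, 79.05 to 94.92 and 63.53 to 67.27 CPM in the same order of groups. The locus at 1 of 4 macrophage marker genes had 63.71 to 222.5 CPM with stearic acid, 145.4 to 200.4 with palmitic acid and 95.75 to 316.4 in control cells. Loci at fibroblast markers stayed at or below 7.799 CPM, those at duct markers at or below 0.3665 CPM, and no locus lay at a delta-cell, acinar or endothelial marker. These lists read lncRNA loci near the genes and not the marker mRNAs, and their part in the results below was not tested; fewer cells of a type and less RNA per cell cannot be told apart in such libraries.

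Cd82 is on the minus strand of GRCm38 (93419111 to 93463140) and all 3 loci are on the plus strand. Gm13807 runs towards the 3′ end of Cd82 and its assembled transcript stops 1115 bases short of it, tail to tail. Gm10804 starts within Cd82 and runs antisense across its first part, and its start lies 135 to 139 bases from the starts of 2 short transcripts among the 11 annotated for Cd82, head to head. Its forms with counts, TCONS_00139242 and TCONS_00139246, are labelled intronic and end at 93461787, within Cd82. Only TCONS_00139245, labelled antisense and without any count, runs past the Cd82 start. XLOC_083627 has 4 exons between 93472982 and 93475093, 9841 bases beyond the Cd82 start and 3110 bases beyond the annotated end of Gm10804 on the same strand. Each locus carries overlapping isoforms, so the 7 transcripts are not independent of each other.

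**Figure D1:**
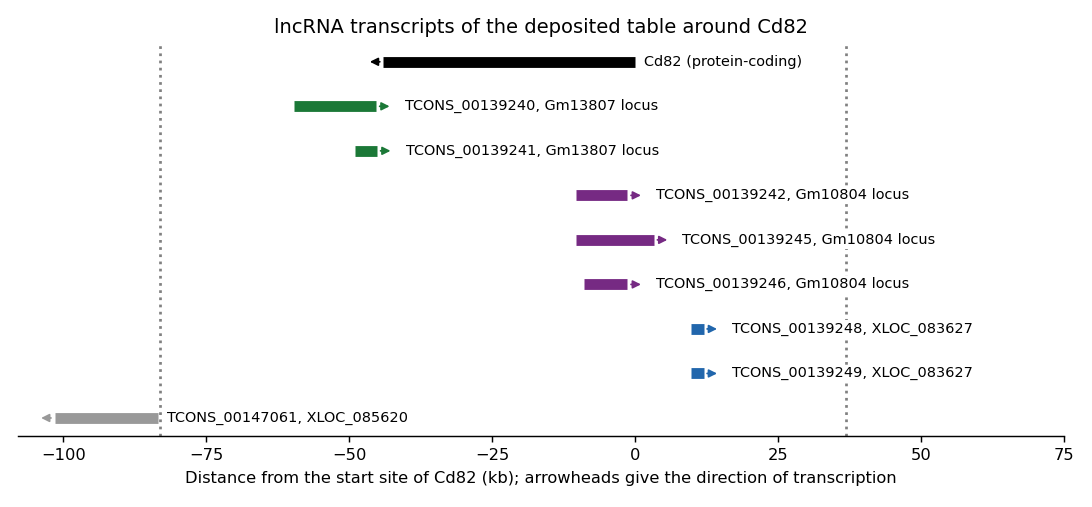
Extent of the 7 lncRNA transcripts and of Cd82, with 1 neighbour (XLOC_085620), as distance in kb from the start site of Cd82; arrowheads give the direction of transcription and dotted lines the edges of the 120 kb window. The 3 loci of the window run in the plus direction, against Cd82, and XLOC_085620 lies 301 bases outside it on the minus strand.

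Counts at the Gm13807 locus came from a single assembled form, TCONS_00139241, with 2 exons from 93414113 to 93417995. The 6-exon form TCONS_00139240, which has the span of the annotated Gm13807 transcript, had no count in any of the 9 libraries. The counted form is 3763 bases long over a span of 3883 bases, and the 120 bases it lacks are as many as the last annotated intron, at 93417595 to 93417714. It ends 165 bases beyond the annotated end. The annotated exons on either side of that intron (GENCODE M21, chr2:93417445-93417830, GRCm38, plus strand) are shown because that intron matches the missing bases in length, although the exon bounds of the counted form were not used here, with exon 5 in lower case and exon 6 in capitals.
Gm13807 exons 5 and 6: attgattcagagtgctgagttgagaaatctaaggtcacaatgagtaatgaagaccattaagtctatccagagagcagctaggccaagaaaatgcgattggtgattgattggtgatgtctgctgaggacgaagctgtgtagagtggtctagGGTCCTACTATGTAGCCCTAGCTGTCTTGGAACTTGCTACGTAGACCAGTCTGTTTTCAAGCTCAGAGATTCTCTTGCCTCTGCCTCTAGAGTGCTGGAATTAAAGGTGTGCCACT

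The stretch between the starts of the short Cd82 transcripts and Gm10804 (chr2:93452684-93452868, GRCm38.p6, plus strand, from RefSeq) is shown because annotated transcripts leave it in both directions; the capitals mark the first 50 bases of Gm10804.
between the Cd82 and Gm10804 starts: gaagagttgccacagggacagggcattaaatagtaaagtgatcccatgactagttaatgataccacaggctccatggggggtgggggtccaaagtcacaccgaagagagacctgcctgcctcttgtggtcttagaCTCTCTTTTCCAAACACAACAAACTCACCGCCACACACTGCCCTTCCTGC
5 short motifs were searched on both strands of the RefSeq promoter of Gm10804, which reaches from upstream of its start to just past it. The CCAAT box (CCAAT) had 1 match, 230 bases upstream of the start and so outside the stretch shown, and 37.4% of 32851 mouse promoters of that length hold one. The TATA box (TATAAA), the GC box (GGGCGG), the AP-1 site (TGACTCA) and the nuclear receptor half-site (AGGTCA) had no match, against shares of 13.6%, 35.7%, 5.2% and 16.3% of promoters.

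Gm13807 had 40.42, 30.16 and 49.8 CPM in the stearic acid libraries, 34.82, 28.25 and 22.95 CPM in the palmitic acid libraries, and 5.803, 3.9 and 2.972 CPM in the control libraries. Every acid library lay above every control library, while the ranges of the acids overlapped. The counts behind these levels were 85, 45 and 121 reads with stearic acid, 95, 74 and 54 with palmitic acid, and 12, 8 and 8 in control cells. Group means were 40.1 ± 9.82 CPM with stearic acid, 28.7 ± 5.94 with palmitic acid and 4.23 ± 1.44 in control cells (SD, n = 3 each). Summed over libraries and scaled by their sizes, the level was 10.1 times control with stearic acid (95% counting interval 6.84 to 15.6) and 7.04 times control with palmitic acid (4.74 to 10.8). On the log2 scale the fitted changes were 3.27 ± 0.33 for stearic acid over control and 2.78 ± 0.33 for palmitic acid over control (SE). Without stearic acid replicate 2 they were 3.42 and 2.79.

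XLOC_083627 had 16.17, 19.44 and 15.64 CPM with stearic acid, 11.73, 8.398 and 14.88 CPM with palmitic acid, and 0.4836, 0 and 0.3715 CPM in control cells. The locus was barely detected in the control libraries, whose values rest on 1, 0 and 1 reads, against 34, 29 and 38 reads with stearic acid and 32, 22 and 35 with palmitic acid. Means were 17.1 ± 2.06 CPM with stearic acid, 11.7 ± 3.24 with palmitic acid and 0.285 ± 0.253 in control cells (SD, n = 3 each). The summed level was 57.1 times control with stearic acid (95% counting interval 15.4 to 478) and 39.4 times control with palmitic acid (10.6 to 330). With 2 control reads in all, the size of the change is known only within these limits, which cover counting error alone. Fitted log2 changes were 5.61 ± 0.63 and 5.07 ± 0.65 (SE) for the acids in the same order; without stearic acid replicate 2 they were 5.52 and 5.09.

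Among all 3039 loci with enough reads to test, 15.0% had every stearic acid library above every control library and 14.1% had every palmitic acid library above every control library. Both named loci belong to these shares by the way they were chosen, and nothing is read from that. All 3 stearic acid libraries of XLOC_083627 lay above all 3 palmitic acid libraries, the lowest with stearic acid being 15.64 CPM and the highest with palmitic acid 14.88 CPM; 6.84% of loci showed that order.

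Gm10804 was the most abundant of the 3 loci and rose with both acids. It had 68.47, 69.71 and 75.32 CPM with stearic acid, 78.06, 62.6 and 54.83 CPM with palmitic acid, and 43.52, 28.76 and 30.84 CPM in control cells. All acid libraries stood above all control libraries, and the values of the acids were interleaved. Means were 71.2 ± 3.65, 65.2 ± 11.8 and 34.4 ± 7.99 CPM for stearic acid, palmitic acid and control (SD, n = 3 each). The log2 change was 1.05 ± 0.20 for stearic acid over control (2.08-fold, adjusted p = 0.000736) and 0.93 ± 0.19 for palmitic acid over control (1.90-fold, adjusted p = 0.00412), from the edgeR quasi-likelihood test, adjusted by Benjamini-Hochberg over all tested loci. Without stearic acid replicate 2 the changes were 1.06 (adjusted p = 0.00199) and 0.94 (adjusted p = 0.00356) in edgeR. At an adjusted p below 0.05, 6.38% of loci were called higher with stearic acid (11.8% in either direction) and 3.69% higher with palmitic acid (5.56% in either direction), so Gm10804 was 1 of 194 and 1 of 112 loci called higher. Stearic acid over palmitic acid gave 0.13 ± 0.19 on the log2 scale, with a 95% interval of -0.26 to 0.51 (edgeR, adjusted p = 0.932), which leaves room for a difference in either direction.

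Gm10804 overlaps Cd82 on the other strand. The library kit keeps strand, but whether counting used strand is not given in the sources used, so a share of Cd82 reads in this locus cannot be told apart from its own. The Cd82 mRNA was not analysed here, since the table holds lncRNAs only. The counted forms of Gm10804 differ in where they start. TCONS_00139242, from 93452819, had 90.17, 79.58 and 85.2 expected counts with stearic acid, 144.6, 95.48 and 104.5 with palmitic acid, and 75.31, 44.36 and 39.06 in control cells. TCONS_00139246, from 93454219, had 53.83, 24.42 and 97.8 expected counts with stearic acid, 68.41, 68.52 and 24.5 with palmitic acid, and 14.69, 14.64 and 43.94 in control cells. The first form held 61.9 ± 15.0% of the locus with stearic acid, 69.0 ± 11.4% with palmitic acid and 68.6 ± 19.2% in control cells (SD, n = 3 each), so the split between starts moved by less than its spread. Tested by itself, neither form passed in edgeR: TCONS_00139242 changed by 0.88 for stearic acid over control (adjusted p = 0.269) and 0.92 for palmitic acid over control (adjusted p = 0.34), and TCONS_00139246 by 1.41 (adjusted p = 0.235) and 1.01 (adjusted p = 0.527). The spread between libraries was wider for transcripts than for loci, with a biological coefficient of variation of 0.564 against 0.204, and the test over 4426 transcripts called 1.42% with stearic acid and 0.407% with palmitic acid. The remaining form, TCONS_00139245, had no count in any library.

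**Figure D2:**
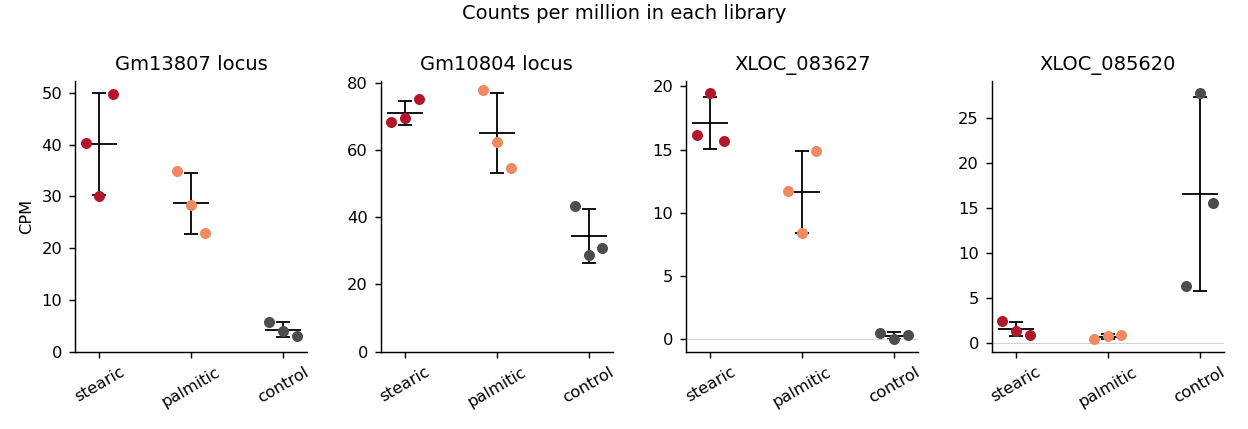
CPM of the 3 lncRNA loci at Cd82 and of the neighbour XLOC_085620 in each of the 9 libraries (points), with the group mean and SD (bars), stearic acid, palmitic acid and control from left to right and a separate axis for each locus. Acid libraries are above control libraries at the 3 loci of the window and below them at XLOC_085620.

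XLOC_083627 consists of a pair of forms with the same ends, TCONS_00139248 (1007 bases) and TCONS_00139249 (1032 bases), that differ by 25 bases. The longer form had 12.62, 7.88 and 21.48 expected counts with stearic acid, 22.03, 15.8 and 35 with palmitic acid, and 0 in each control library. Set against a floor of 3 reads over the whole control group, it was 16.0-fold above that floor with stearic acid and 21.9-fold with palmitic acid. These values take the control counts of 0 as given and leave out counting error in the acid libraries. They also leave out the estimation that placed the 2 control reads of the locus in the shorter form. The shorter form had 21.38, 21.12 and 16.52 expected counts with stearic acid, 9.97, 6.2 and 0 with palmitic acid, and 1, 0 and 1 in control cells. The shorter form made up 62.9%, 72.8% and 43.5% of the locus with stearic acid, with 95% exact binomial intervals of 43.6 to 77.8, 52.8 to 87.3 and 28.6 to 61.7%. With palmitic acid it made up 31.2%, 28.2% and 0%, with intervals of 16.1 to 50.0, 10.7 to 50.2 and 0 to 10%. All stearic acid libraries thus had a larger share of the shorter form than any palmitic acid library. The intervals of stearic acid replicates 1 and 3, however, overlap those of palmitic acid replicates 1 and 2. Only stearic acid replicate 2 is clear of all 3 palmitic acid libraries. It is also the library with the lowest total, which stood apart on the second principal component. Reads that cover the shared bases were divided between the forms by estimation, which the intervals do not include, and no test was made because both forms belong to a locus chosen for its change. In control cells 2 reads cannot give a share.

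**Figure D3:**
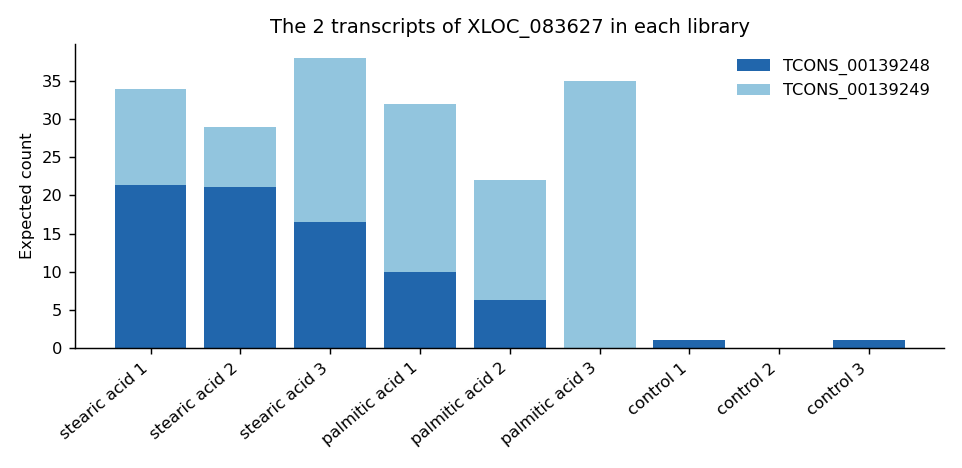
Expected counts of the 2 transcripts of XLOC_083627, stacked, in each of the 9 libraries. The shorter form TCONS_00139248 (dark) is the larger part in stearic acid replicates 1 and 2, the smaller part in stearic acid replicate 3 and in palmitic acid replicates 1 and 2, and at 0 in palmitic acid replicate 3.

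Per length, in the deposited FPKM values (fragments scaled by transcript length and library size), levels can be set side by side between transcripts. With stearic acid TCONS_00139248 had 14.13, 17.45 and 8.71 FPKM, TCONS_00139241 of Gm13807 had 12.35, 8.26 and 14.13 FPKM, TCONS_00139249 had 8.09, 6.31 and 10.98 FPKM, and TCONS_00139242 of Gm10804 had 8.11, 9.06 and 6.17 FPKM. These 4 ranges overlap, while TCONS_00139246, the other counted form of Gm10804, lay below them at 3.86, 2.22 and 5.64 FPKM. With palmitic acid TCONS_00139249 had 9.97, 7.14 and 17.44 FPKM, TCONS_00139241 had 9.76, 7.64 and 6.14 FPKM, and TCONS_00139242 had 9.2, 6.11 and 7.37 FPKM. Below these 3 overlapping ranges lay TCONS_00139246, at 3.47, 3.49 and 1.38 FPKM, and TCONS_00139248, at 4.66, 2.89 and 0 FPKM. In control cells TCONS_00139242 had 7.18, 3.69 and 2.38 FPKM, TCONS_00139246 had 1.12, 0.97 and 2.13 FPKM, TCONS_00139241 had 1.85, 1.07 and 0.78 FPKM, TCONS_00139248 had 0.7, 0 and 0.44 FPKM, and TCONS_00139249 was at 0. TCONS_00139242 thus stood above the other forms in control cells and those of XLOC_083627 below them, while TCONS_00139246 overlapped Gm13807.

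The 3 loci were all higher with both acids, but not by the same factor. For Gm13807 and XLOC_083627 that direction follows from the way they were chosen, so only Gm10804 adds to it. The sums and shares below include the chosen loci and are a description. Their summed level was 128 ± 11.1 CPM with stearic acid, 106 ± 16.9 with palmitic acid and 38.9 ± 9.49 in control cells (SD, n = 3 each). Gm10804 supplied 55.6 ± 2.56% of that sum with stearic acid, 61.6 ± 2.14% with palmitic acid and 88.6 ± 1.48% in control cells. Gm13807 supplied 31.0 ± 5.18%, 27.1 ± 1.997% and 10.8 ± 1.80%, and XLOC_083627 13.4 ± 2.63%, 11.3 ± 4.14% and 0.686 ± 0.597%, in the same order of groups. The ratio of XLOC_083627 to Gm13807 was 0.4, 0.644 and 0.314 with stearic acid, 0.337, 0.297 and 0.648 with palmitic acid, and 0.0833, 0 and 0.125 in control cells. On the log2 scale the change of XLOC_083627 exceeded that of Gm13807 by 2.34 for stearic acid over control and by 2.29 for palmitic acid over control, a gap that rests on the 2 control reads of XLOC_083627.

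Between the acids, given at the same concentration and for the same time, the pair leaned towards stearic acid in the mean. The log2 difference of stearic acid over palmitic acid was 0.49 ± 0.25 for Gm13807 and 0.54 ± 0.37 for XLOC_083627 (SE). Their 95% intervals were -0.03 to 1.02 and -0.23 to 1.32, and no p is given because the loci were chosen with these values known. Without stearic acid replicate 2 the differences were 0.63 and 0.43, and that of Gm10804 was 0.12. Of all tested loci, 3 (0.0987%) were called between the acids, and Gm10804 was not among them. No transcript passed this comparison in edgeR over transcripts. Of 4426 transcripts, 216 (4.88%) had an unadjusted edgeR p below 0.05, a share close to that threshold itself. Of the 3039 tested loci, 224 (7.37%) did, a share above the threshold. DESeq2 called 13. In the authors' deposited table for stearic acid against palmitic acid, which lists 17 transcripts, none belonged to the 3 loci.

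The authors' deposited tables of changed transcripts list 3 of the 7 transcripts. All 3 belong to the loci chosen for their change, so their listing follows from the choice. TCONS_00139241 stands at a log2 fold change of 2.9 ± 0.39 for stearic acid and 2.21 ± 0.35 for palmitic acid in the authors' deposited tables. TCONS_00139249 stands at 2.68 ± 0.61 and 2.19 ± 0.44, and TCONS_00139248 at 2.86 ± 0.59 in the authors' deposited table for stearic acid alone. Those tables hold 189 and 81 of the 15589 transcripts for stearic and palmitic acid, and no form of Gm10804. The edgeR fit over transcripts gave log2 changes of 3.26 with stearic acid and 2.79 with palmitic acid for TCONS_00139241. It gave 6.96 and 7.48 for TCONS_00139249, which had no count in any control library, and 4.92 with stearic acid for TCONS_00139248. The authors' deposited values are smaller for each of these, and the reason was not tested.

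The nearest lncRNA locus outside the window did not share the rise. XLOC_085620, an unannotated 4-exon lncRNA (TCONS_00147061, 2206 bases) on the minus strand at 93361620 to 93379699, lies 301 bases outside the window and 27114 bases from Tspan18, another tetraspanin gene. It had 2.377, 1.341 and 0.8231 CPM with stearic acid, 0.3665, 0.7634 and 0.8501 CPM with palmitic acid, and 6.286, 27.78 and 15.6 CPM in control cells. Each acid library was below each control library, an order that 14.3% of loci showed with stearic acid and 12.7% with palmitic acid, and the control libraries spread widely among themselves. It fell by 3.41 ± 0.64 on the log2 scale with stearic acid (10.7-fold lower, edgeR adjusted p = 0.000825) and fell by 4.55 ± 0.69 with palmitic acid (23.5-fold lower, edgeR adjusted p = 0.000136). Without stearic acid replicate 2 the changes were -3.37 (edgeR adjusted p = 0.00324) and -4.55 (edgeR adjusted p = 0.000111). Its single transcript did not pass the test over transcripts, at -3.40 with stearic acid (edgeR adjusted p = 0.0578) and -4.53 with palmitic acid (edgeR adjusted p = 0.0511). The authors' deposited tables list it at -2.39 ± 0.55 and -2.36 ± 0.43. At this threshold 5.4% of loci were called lower with stearic acid and 1.88% with palmitic acid. Stearic acid over palmitic acid gave 1.141 on the log2 scale with a 95% interval of -0.73 to 3.01 (edgeR adjusted p = 0.832). Its 5′ end is 23847 bases from the start of Gm13807, and the loci run away from each other.

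Within 1 Mb on either side of the window lie 12 other lncRNA loci, of which 7 had enough reads to test. With stearic acid 3 of the 7 were called in edgeR, 1 higher and 2 lower, and with palmitic acid 2, 1 higher and 1 lower, beside 11.8% and 5.56% of all tested loci. The median log2 change of the 7 was -0.40 with stearic acid and -0.24 with palmitic acid, beside 0.01 and -0.02 over all tested loci. The locus called higher was XLOC_083620, unannotated, at 92806567 to 92812358. It had 37.6 ± 16.0 CPM with stearic acid, 36.0 ± 4.78 with palmitic acid and 16.3 ± 2.51 in control cells (SD, n = 3 each), and it rose by 1.22 ± 0.27 on the log2 scale with stearic acid (edgeR adjusted p = 0.00411) and 1.15 ± 0.27 with palmitic acid (edgeR adjusted p = 0.0102). That call was lost for stearic acid without stearic acid replicate 1 (0.80, edgeR adjusted p = 0.0738), and for palmitic acid without control replicate 3 (edgeR adjusted p = 0.0706) or palmitic acid replicate 2 (edgeR adjusted p = 0.0634). The other locus called lower, with stearic acid, was D930015M05Rik (XLOC_083612), which overlaps Cry2, a repressor of the circadian clock. It fell by 0.64 ± 0.20 on the log2 scale (edgeR adjusted p = 0.0405), and 6 of 15 alternatives lost the call, among them the one without stearic acid replicate 2 (edgeR adjusted p = 0.145); with palmitic acid its change was -0.38 (edgeR adjusted p = 0.299). Stearic over palmitic acid gave -0.26 for the locus (edgeR adjusted p = 0.828), whereas the authors' deposited table for that comparison lists one of its transcripts, TCONS_00139202, at 1.59 ± 0.40. The nearest tested neighbour on the far side, Alkbh3os1, changed by -0.40 with stearic acid (edgeR adjusted p = 0.297) and -0.24 with palmitic acid (edgeR adjusted p = 0.603).

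**Figure D4:**
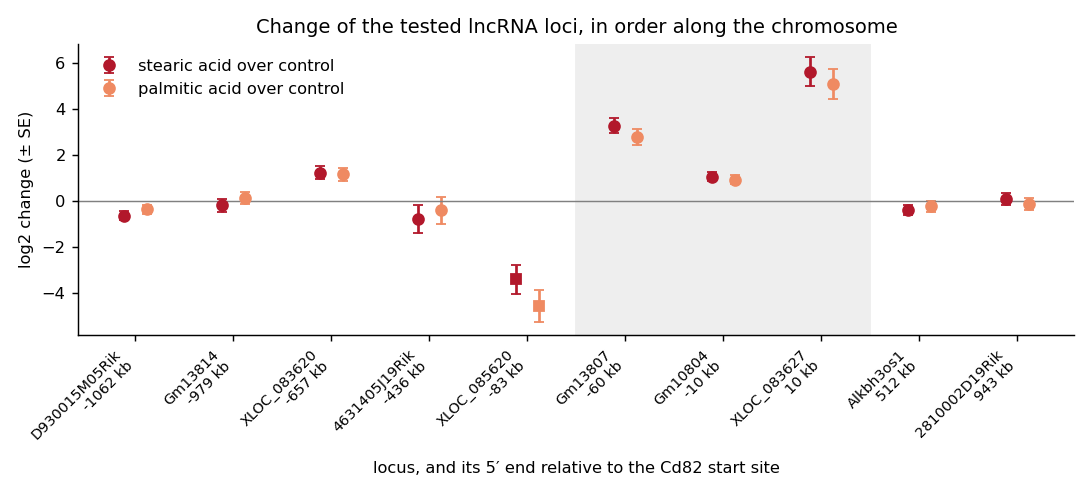
Fitted log2 change over control (± SE) of the 10 tested lncRNA loci within 1 Mb of the window, in chromosome order and labelled with the distance of the 5′ end from the Cd82 start site, for stearic acid (left of each pair) and palmitic acid; squares are on the minus strand and the grey band holds the 3 loci of the window. The 3 loci in the band lie above 0 with both acids and their neighbour XLOC_085620 lies below 0.

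lncRNA loci at other tetraspanin genes were few. Of 44 tetraspanin symbols searched, 31 were in the annotation and 16 had an lncRNA locus within 10 kb, 18 loci in all without Gm13807 and XLOC_083627. Only 6 of the 18 had enough reads to test, and Gm10804 was the sole one called in either acid; without it 0 of 5 were called with either acid by edgeR, with median log2 changes of 0.08 for stearic acid and -0.42 for palmitic acid. With 11.8% and 5.56% of all tested loci called, 0 of 5 is near the background and says nothing particular about tetraspanin genes. XLOC_012443 at Tspan31 had a mean of 131 CPM with stearic acid, 121 with palmitic acid and 123 in control cells, and its log2 changes were 0.08 and -0.03. R74862, beside Cd81, which encodes a tetraspanin of the B-cell co-receptor, had 44.5, 40.1 and 32.4 CPM, and its changes were 0.45 (edgeR adjusted p = 0.177) and 0.31 (edgeR adjusted p = 0.457).

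By a distance that depends on the size of the change, loci elsewhere in the genome lay closer to Gm13807 and XLOC_083627 than Gm10804 did. Likeness was the root mean square distance, over the 9 libraries, between log2(CPM + 1) values set relative to the control mean, among 1868 loci for Gm13807 and 1869 for XLOC_083627 that averaged at least 10 CPM; XLOC_083627 and XLOC_085620, which averaged less, were placed in that order by their own distance. The nearest locus to Gm13807 was XLOC_061288 on chromosome 16 (distance 0.479), which lies 13.5 kb from Cd47, the gene of a cell-surface signal against phagocytosis, then XLOC_003054 on chromosome 1 (0.567) and XLOC_083960 on chromosome 2 (0.607). XLOC_061288 and XLOC_003054 were also the nearest loci to XLOC_083627 (0.612 and 0.711), with Gm13807 at rank 3 (0.775), while XLOC_083627 was at rank 7 for Gm13807. Gm10804 was at rank 51 for Gm13807 and rank 60 for XLOC_083627, while from its own side Gm13807 was at rank 1775 and XLOC_083627 at rank 1858 of 1868. The nearest loci to Gm10804 were 9230114K14Rik (0.167), XLOC_061563 (0.204) and Panct2 (0.204). XLOC_085620, which fell, would stand at rank 1868 for Gm13807 and at rank 1869 for XLOC_083627, at the far end of the order. These distances describe the same 9 libraries that served to choose the pair. They depend on the size of a change as well as its direction, so a place far down the order does not mean an opposite course. Gm10804 rose with both acids, as did Gm13807 and XLOC_083627, but by less.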

How the data were processed

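Per the submitters' processing notes, reads were handled with bcl2fastq 2.17.1.14, Trimmomatic 0.30, HISAT2 2.0.1, HTSeq 0.6.1 and DESeq on build mm10; the sources used here do not say which tool made which column. The authors deposited an expected count and an FPKM value for each lncRNA transcript and library, where 51.8% of counts above 0 are whole within 0.005, and tables of changed transcripts with log2 fold changes, their SE and p-values. The FPKM values deposited by the authors were used only to set transcripts side by side per length, and the authors' p-values were not used.

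Expected counts were summed per locus, rounded and tested with edgeR 4.0.16 (R 4.3.3): filterByExpr, TMM scaling, 1 quasi-likelihood fit over all 9 libraries without a block, and calls at a Benjamini-Hochberg adjusted p below 0.05. The same was done per transcript. On simulated data for 3039 loci, 4-fold changes were called in 79% (stearic acid over control) and 84% (palmitic acid over control) of cases and 2-fold changes in 49% and 45%, with 6 and 3 unchanged loci called. Symbols and exons came from GENCODE M21. Alternatives were DESeq2 1.42.0, other scaling, no filter, fits of only the groups compared, a replicate block and leaving out each library. After the group mean of each locus was subtracted, same-numbered libraries of different groups correlated at -0.042 to 0.083 over 9 pairs. Differently numbered libraries correlated at -0.064 (control 2 with stearic acid 1) to 0.068 (palmitic acid 1 with stearic acid 2). Pairing by number was thus not seen, and 3 libraries per group are too few to settle it. Neighbours and likeness were named by fixed rules: tested loci within 1 Mb that passed or lie nearest, the 3 most abundant tetraspanin loci, and the 3 nearest profiles. The members and lists were chosen with earlier results of these data known. Intervals of count ratios and shares cover counting error only; those of log2 differences come from the SE of the fit.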

Additional observations from a re-analysis of the deposited data

How the results depend on the processing

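The rise of Gm10804 with both acids and the fall of XLOC_085620 kept direction and call in all 15 alternatives over loci, though the single transcript of XLOC_085620 did not pass over transcripts (edgeR adjusted p = 0.0578 with stearic acid, 0.0511 with palmitic acid); edgeR or DESeq2 adjusted p-values for Gm10804 were 3.94e-05 to 0.012 with stearic acid and 0.000482 to 0.0467 with palmitic acid. Gm13807 changed by 3.04 to 3.55 and 2.55 to 3.06 on the log2 scale when 1 library was left out, and XLOC_083627 by 5.16 to 6.01 and 4.62 to 5.46, its extremes coming without control replicate 2 and control replicate 1, since its control level rests on 2 reads.

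Leaving out 1 library gave 236 to 373 loci called with stearic acid (358 with all), 104 to 240 with palmitic acid (169 with all; 104 without control replicate 2) and 0 to 4 between the acids; the fit of only the control and palmitic acid libraries called 242. Between the acids DESeq2 called 5 loci and the unfiltered fit 13. For transcripts, stearic acid, palmitic acid and stearic against palmitic acid gave 63, 18 and 0 calls, against 230, 130 and 13 with DESeq2, 115, 48 and 17 without the filter, and 8 to 33, 1 to 16 and 0 to 2 with 1 library left out; the cause was not tested. With 500 kb in place of 1 Mb, 1 neighbour was called with each acid, and 1 to 2 were called with palmitic acid when a library was left out, 1 without control replicate 3 or palmitic acid replicate 2. With 50 kb in place of 10 kb, 2 loci at tetraspanin genes were called with each acid, the second being XLOC_085620.

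With the replicate number as a block, 361, 161 and 3 loci were called, and 16, 1 and 0 transcripts; Gm10804 changed by 1.07 and 0.93 and kept both calls. Few reads at XLOC_083627 limit what is known of its level in control cells and of the shares of its forms.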
